A study of Drosophila melanogaster with 2 samples.

Results

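Reproducible Asciz-GFP peaks whose summit lay inside the transcribed side of a promoter, 50 to 500 bp downstream of a transcription start site (TSS), are described here. A summit was kept when its nearest TSS, over all annotated transcripts, belonged to a protein-coding gene and no protein-coding TSS of the opposite strand lay within 500 bp. The rule found 229 of the 5085 peaks in the authors' reproducible list, or 4.5%, at 220 genes. At 17 of the 229 a library had no overlapping region, so the list does not by itself show a peak in both libraries. These downstream peaks made up 17.8% of the 1288 one-strand promoter peaks (95% Wilson interval 15.8 to 20%, counting error only). The other one-strand promoter peaks, used for comparison, were 895 upstream peaks (50 to 500 bp before the TSS) and 164 core peaks (within 49 bp of it on either side).

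The data came from chromatin immunoprecipitation with sequencing (ChIP-seq) on whole Drosophila melanogaster embryos of mixed sex, 0 to 24 h old. The embryos came from a transgenic line that stably expressed CG14962, also named Asciz, tagged with GFP at the C-terminal end, and the precipitating antibody recognised GFP. The 2 libraries, biological replicates 1 and 3, form a single group, with no embryos of another genotype or treatment. Whole embryos of mixed age were used, so binding in a few cells and weak binding in many cells cannot be told apart. The deposited values are peak lists without counts, and how deeply each library was sequenced is unknown.

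Asciz is a zinc finger transcription factor, and its known target in flies is ctp, which encodes LC8, a dynein light chain and small hub protein that many partners bind. The stretch just downstream of a TSS holds the 5' untranslated region (5' UTR), the start of the coding sequence or the first intron, and fly first introns often carry regulatory sequence. Some fly core promoters also have elements downstream of the start site that help to place RNA polymerase II.

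The windows from 50 bp before to 50 bp after the summit of 5 strong intronic downstream peaks, in which no UTR is touched, are shown as examples. Each is written 5' to 3' on the gene's strand, from the release 6 assembly (dm6), with its longest unbroken run of A and T in capitals.
bchs, chr2L:5907566-5907666, plus strand: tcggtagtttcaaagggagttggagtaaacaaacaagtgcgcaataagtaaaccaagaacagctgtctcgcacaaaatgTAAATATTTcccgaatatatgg
CG10365, chr3R:23723780-23723880, plus strand: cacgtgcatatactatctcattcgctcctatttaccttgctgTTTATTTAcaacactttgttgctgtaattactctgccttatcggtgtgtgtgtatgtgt
scramb2, chr3L:3046380-3046480, minus strand: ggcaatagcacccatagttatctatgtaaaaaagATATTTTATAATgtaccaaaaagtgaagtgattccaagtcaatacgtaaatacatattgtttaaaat
rudhira, chrX:11818567-11818667, plus strand: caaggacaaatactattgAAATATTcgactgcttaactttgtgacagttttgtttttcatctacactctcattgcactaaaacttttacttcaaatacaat
Ptp4E, chrX:4939932-4940032, plus strand: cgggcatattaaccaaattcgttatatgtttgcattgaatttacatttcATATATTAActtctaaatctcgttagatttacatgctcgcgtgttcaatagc
The capital runs were 7 to 12 bases long, and the A+T content of the 5 windows lay between 61.4 and 73.3%. The windows of bchs, scramb2, rudhira and Ptp4E exceeded the mean of equal windows 300 bp before and after the summit. That of CG10365 was below it, at 61.4 against 63.4%. The intronic peak at wun, stronger than CG10365, is not shown and was below it too, at 57.4 against 64.9%. The bchs window also holds GTAAACA, a forkhead-type motif, and the CG10365 window ends in a run of GT pairs.

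Short CA repeats, read as GT on the other strand, were the leading sequence difference from upstream peaks, and 30-base stretches of 6 strong downstream peaks that carry one are shown for that reason. They are written in the same way, with the repeat in capitals.
CG10365, chr3R:23723851-23723880, plus strand: actctgccttatcgGTGTGTGTGTatgtgt
CG31729, chr2L:13290370-13290399, plus strand: cgcgtatatataGTGTGTttaccctacctg
Stat92E, chr3R:20550747-20550776, minus strand: accagccagccGTGTGTGTttacacagtgt
CaMKI, chr4:446178-446207, plus strand: gtaattcctagcGTGTGTattcctttaaaa
CG12194, chr2L:4838666-4838695, plus strand: tattgacgtggGTGTGTGTacatatcgaat
CG12316, chr3L:15136797-15136826, minus strand: cgagctcatgaaACACACctgcgaataaag
The stretches of CG10365 and CG12194 lay in introns and the other 4 in 5' UTRs.

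The strongest downstream peak lay 426 bp into ph-p, which encodes a subunit of the Polycomb repressive complex PRC1. The scale used per library is the relative signal, the signal of the strongest overlapping region set relative to the same library's median across all reproducible peaks. For ph-p it was 6.03 in replicate 1 and 6.56 in replicate 3, and the pooled signal was 1325. ph-p has a near-identical neighbour, ph-d, so reads may have been split between the copies and the value is uncertain. The second strongest peak lay 447 bp into bchs, which encodes a BEACH-domain protein that acts in autophagy and lysosomal traffic, with relative signals of 4.66 and 5.51 in replicates 1 and 3. The third strongest, at GstE13, lay at +73 bp and was seen in replicate 3 alone, as given further on. The fourth, 409 bp into wun, the gene for a lipid phosphate phosphatase that guides migrating germ cells, had relative signals of 4.54 and 4.19. Peaks at CG10365 (+499 bp; 3.67 and 3.74) and at the scramblase gene scramb2 (+382 bp; 3.33 and 3.49) followed. Leaving GstE13 aside, the libraries gave these peaks values within 1 on the log2 scale of each other. Over the 20 strongest peaks, 11 summits lay more than 300 bp from the TSS.

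Stat92E, which encodes the transcription factor of the JAK-STAT pathway, had a peak 353 bp downstream with relative signals of 2.60 in replicate 1 and 3.18 in replicate 3. Ada2b, the adaptor subunit of the SAGA histone acetyltransferase complex, had 3.52 and 2.43 at +384 bp. CHES-1-like, a forkhead transcription factor, had 2.92 and 2.29 at +226 bp. wde, the cofactor of the histone H3K9 methyltransferase Eggless, had 2.35 and 2.30 at +489 bp. The other 11 of the 20 strongest peaks were at GstE13, CG31729, rudhira, Ptp4E, CG10433, CG31751, Cftr, hng3, CG9399, Trpm and Dph1. Every one of the 20 with a region in both libraries lay above the median peak in each, and the pooled signal of the 20 ran from 488 to 1325. Of the 20, 11 lay in introns and 9 in 5' UTRs.

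**Figure D1:**
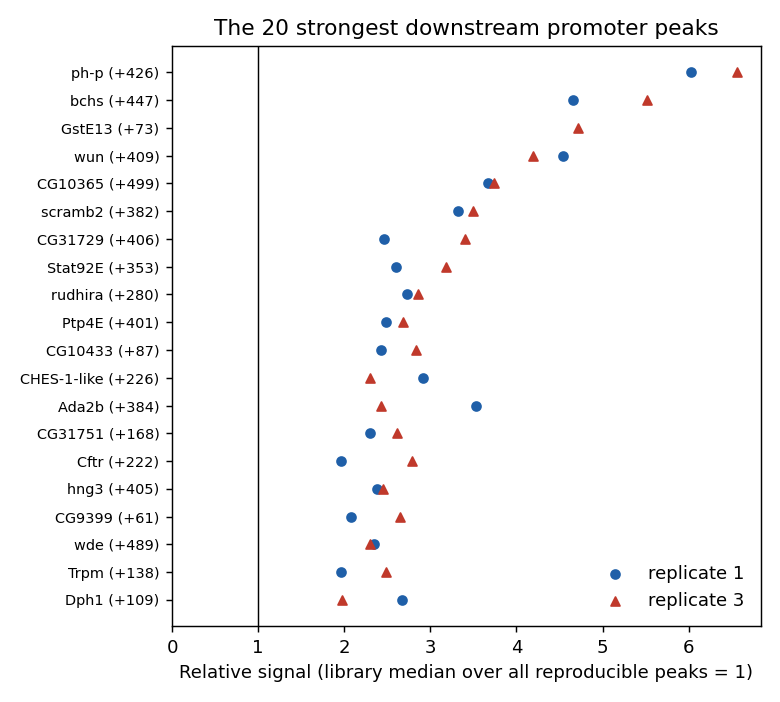
Relative signal of the 20 downstream peaks of highest pooled signal in replicate 1 (circles) and replicate 3 (triangles), with each summit's distance from the TSS in bp, where 1 is the median reproducible peak. All values shown exceed 1, ph-p reaches 6.03 and 6.56, and GstE13 has no replicate 1 symbol because no replicate 1 region overlapped it.

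GstE13, a glutathione S-transferase gene, stood apart among the strong peaks. It had a pooled signal of 976 and a relative signal of 4.71 in replicate 3, but no region of replicate 1 overlapped it, and the nearest replicate 1 summit was 7147 bp away. The peak at bgcn, a gene needed for germline stem cell daughters to differentiate, was the same in kind, with 2.31 in replicate 3 and the nearest replicate 1 summit 8348 bp away. Both are in the authors' reproducible list although a region was found in 1 library.

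As a whole the downstream peaks were weaker than the upstream ones. Their pooled signal ran from 128 to 1325 with a median of 177.5 (quartiles 148 and 260), against a median of 205 for all reproducible peaks. Above the list's median lay 82 of the 229 downstream peaks (35.8%), 547 of the 895 upstream peaks (61.1%) and 70 of the 164 core peaks (42.7%). The share was lower than in upstream peaks by 1.49 on the log2 odds scale (log2 odds ratio −1.49, two-sided Fisher's exact test, adjusted p = 4.32e-11), with p-values adjusted over 6 comparisons. By the same exact test within replicate 1 the downstream and upstream shares were 38.0 and 60.2% (log2 odds ratio −1.30, adjusted p = 5.67e-09), and within replicate 3 they were 43.7 and 61.3% (−1.03, adjusted p = 4.12e-06). A peak with no region in a library was set to 0 there and so counted as not above the median. In replicate 1 that held for 16 downstream and 31 upstream peaks, and in replicate 3 for 1 and 2. The thresholds were then relative signals of 0.977 in replicate 1 and 0.999 in replicate 3. Against core peaks the difference did not pass (pooled log2 odds ratio −0.42, exact test, adjusted p = 0.261), and in replicate 1 alone its sign was opposite (0.12, adjusted p = 0.751). Peaks are not replicates of a condition, and these p-values describe this list rather than the variation between embryos.

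Downstream peaks grew more common towards the weak end of the list. They were 15 of the 176 one-strand promoter peaks among ranks 1 to 500 (8.52%) and 71 of the 260 among ranks 4001 to 5085 (27.3%). The ranks between gave 13.7, 12.6, 17 and 23.6% in turn.

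Summits were sparser downstream of the TSS than upstream. Over every base that the rule could have picked, 6.65 Mb downstream, 5.3 Mb upstream and 1.43 Mb at the core, there were 34.4 summits per Mb downstream, 169 upstream and 114 at the core. The upstream density was highest in the 50 bp bin that begins 250 bp before the TSS, with 237 per Mb. Downstream it was 62.2 per Mb at +50 to +99 bp and 64 at +100 to +149 bp. It fell to 13.7 at +200 to +249 bp, which holds 10 summits, and was 34.8 at +350 to +399 bp, with 26 summits. The median distance was 197 bp with quartiles at 117 and 363 bp. Most regions (81.2%) had the same width, 424 bp, with the summit near the centre, which limits how finely a position can be read.

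**Figure D2:**
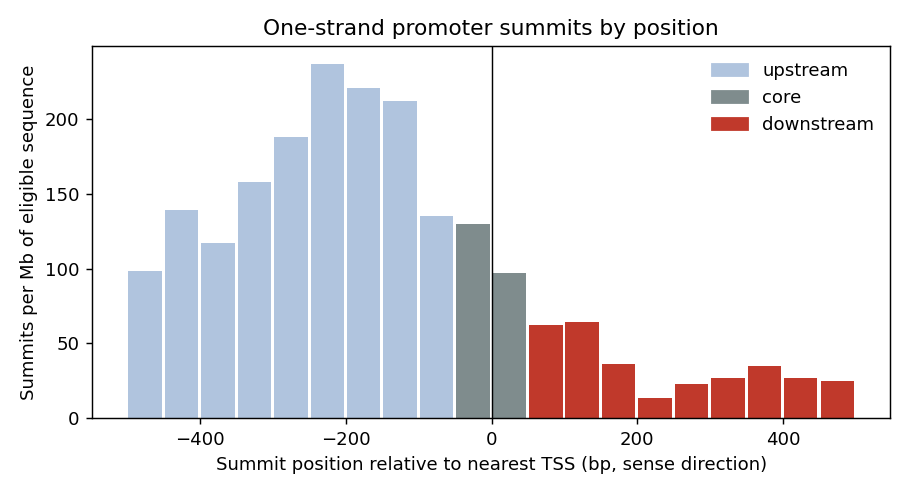
One-strand promoter summits per Mb of eligible sequence in 50 bp bins of distance from the nearest TSS, in the direction of transcription, for upstream, core and downstream peaks. Density is highest upstream (237 per Mb), and downstream it is 64 per Mb at +100 to +149 bp, 13.7 at +200 to +249 bp and 34.8 at +350 to +399 bp.

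The bounds of the rule cut through a continuous series of summits. Just inside the lower bound were CG34355 at +50 bp with a pooled signal of 202, Dgk at +51 bp with 187 and CG17292 at +52 bp with 153. Just outside it were zf30C and CG43736 at +46 bp with 206 and 193, and HmgD at +47 bp with 133. Just inside the upper bound were InR at +493 bp with 160, Utx at +497 bp with 318 and CG10365 at +499 bp with 808, and just outside it were Sur-8 at +501 bp with 178, CG5854 at +503 bp with 353 and CG15611 at +509 bp with 137.

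The downstream summits lay in 5' UTRs and first introns and seldom in coding sequence. Of the 229, 112 (48.9%, Wilson interval 42.5 to 55.3%) lay in 5' UTRs, 110 (48%, 41.6 to 54.5%) in introns and 7 (3.06%, 1.49 to 6.17%) in coding sequence. The bases open to the rule were 28% 5' UTR, 24.2% intron and 46% coding. Per Mb this came to 60.1 summits in 5' UTRs, 68.2 in introns and 2.28 in coding sequence. The feature was partly fixed by the position, so no test was made. The 7 coding summits were at tna, CG44812, Got2, AGO2, kel, CG14074 and Rm62, and their median pooled signal was 153, against 176 in 5' UTRs and 184 in introns. The coding share was 0.917% without replicate 3 and 0% among peaks above the list's median signal.

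**Figure D3:**
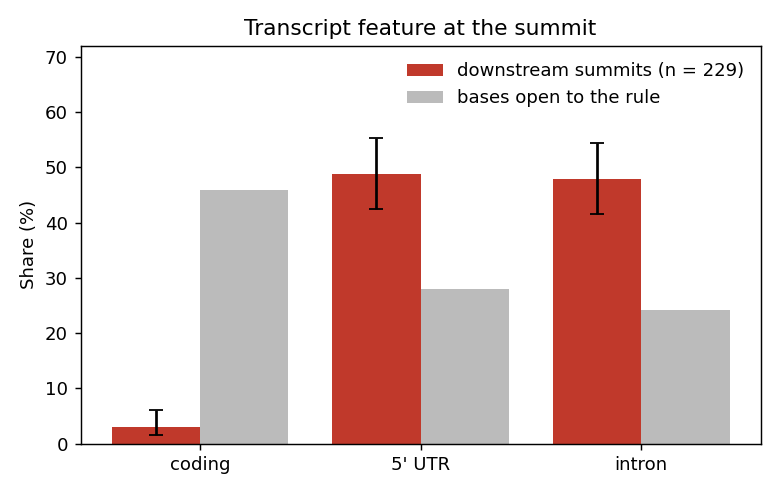
Share of the 229 downstream summits in coding sequence, 5' UTR and intron (red, with 95% Wilson intervals) beside the share of all bases open to the rule in each (grey). Coding sequence holds 3.06% of summits and 46% of the bases, and introns hold 48% of summits and 24.2% of the bases.

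Of the 110 intronic summits 108 lay in the first intron of the transcript that starts at the nearest TSS. The introns that held a summit had a median length of 1074 bp (quartiles 458 and 2688 bp), and 61 were longer than 1 kb, up to 16554 bp at CG34355. The 16366 annotated first introns that reach into the same window had a median length of 226 bp, and longer introns offer more positions to the rule. The median summit lay 149.5 bp from the 5' splice site. wun, CG10365 and rudhira were cases with long introns, of 4754, 5008 and 4767 bp, and their summits lay 130, 172 and 102 bp past the splice site. hng3 (255 bp) and scramb2 (420 bp) had short ones.

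Summits near the TSS and those farther in differed in feature and in strength. These bands of distance were drawn after the values were seen and carry no test. The features of the open bases were not counted by band, so the shares by feature have no background here. How far they follow the layout of the annotation was not tested. Of the 117 summits at +50 to under +200 bp, 84 (71.8%) lay in 5' UTRs and 28 (23.9%) in introns, and 26.5% had a signal above the list's median. Of the 85 summits at +300 to +500 bp, 18 lay in 5' UTRs and 66 (77.6%) in introns, and 47.1% were above that median. The median relative signal of the near band was 0.725 in replicate 1 and 0.897 in replicate 3, and that of the far band was 1.08 and 1.05. The 27 summits between had 0.848 and 0.974.

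The libraries matched less well at downstream peaks than at upstream ones. No region of a library, or relative signals differing by more than 1 on the log2 scale, was found at 40 of 229 downstream peaks (17.5%) and 81 of 895 upstream peaks (9.05%; log2 odds ratio 1.09, two-sided Fisher's exact test, p = 0.000484). At core peaks the share was 31 of 164 (18.9%), close to that downstream, with no test made. Among downstream peaks above the list's median signal the difference from upstream peaks did not pass (log2 odds ratio 0.32, exact test, p = 0.792). Replicate 1 lacked a region at 16 downstream peaks and replicate 3 at 1, ZnT41F, which encodes a zinc transporter. Replicate 3 was the higher at 141 of the 212 peaks seen in both (66.5%), with a median difference of 0.18 on the log2 scale, against 54.8% and 0.03 at upstream peaks and 69.8% and 0.22 at core peaks. By more than 1 on that scale, replicate 3 was higher at 19 downstream peaks and replicate 1 at 4. The 5085 strongest regions of replicate 1 alone overlapped 160 of the downstream peaks (69.9%), and those of replicate 3 alone overlapped 204 (89.1%). Both libraries' strongest regions held 144 of them (62.9%), against 707 upstream peaks (79%). The part that the replicate 3 library played in these differences was not tested beyond these values.

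The library region with the highest signal can belong to a neighbouring summit, and 26 downstream peaks had another reproducible summit within 424 bp. Without such peaks the shares that disagreed were 36 of 203 downstream (17.7%) and 69 of 767 upstream (9.0%) (log2 odds ratio 1.13, two-sided Fisher's exact test, p = 0.000835), a comparison chosen after the data were seen. The largest single gap was at Pgk, which encodes the glycolytic enzyme phosphoglycerate kinase. Its peak at +315 bp had relative signals of 0.251 (replicate 1) and 1.20 (replicate 3), a difference of 2.26 on the log2 scale. The annexin gene AnxB9 (+69 bp; 0.276 and 1.02), the homeodomain-interacting kinase gene Hipk (+386 bp; 0.352 and 1.28), the profilin gene chic (+133 bp; 0.319 and 1.11) and the RNA interference gene AGO2 (+193 bp; 0.326 and 1.03) came next. All 5 were higher in replicate 3, and their pooled signals, 129 to 165, were all below the list's median. At Pgk and Hipk another summit lay 218 and 220 bp away and the replicate 3 signal exceeded the pooled one, so their replicate 3 values may be those of the neighbour. At AnxB9, chic and AGO2 no other summit lay within 424 bp.

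**Figure D4:**
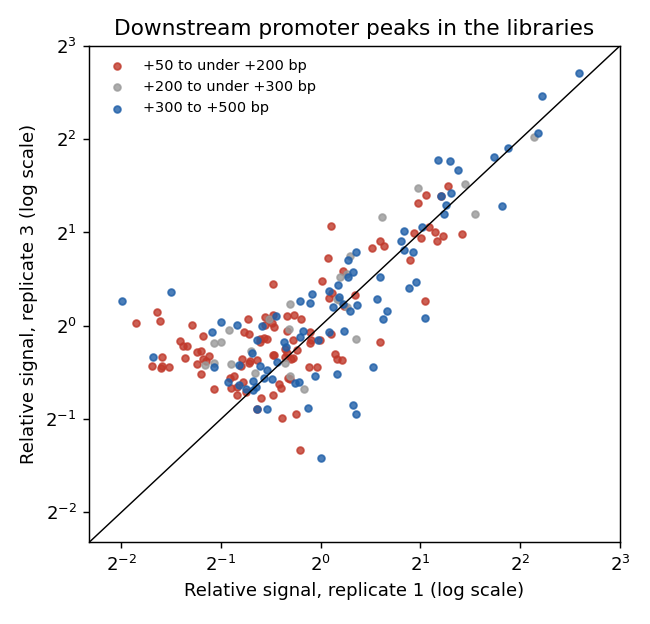
Relative signal of the downstream peaks seen in both libraries, replicate 1 against replicate 3 (log scales), coloured by the summit's distance from the TSS, with the line of equal values. Above the line lie 141 of 212 points, and the points farthest above it have low replicate 1 values, as at Pgk (0.251 and 1.20).

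Sequence at the summits was richer in A and T than the sequence beside it. Windows reaching 50 bp to either side of the summit held 62.9% A+T (SD 8.46, n = 229), and equal windows placed 300 bp before and after it held 58.0% (SD 7.23). The summit was the higher at 147 peaks and the lower at 77 (64.2% higher, two-sided exact sign test, adjusted p = 3.38e-06). That test takes equal odds as its reference. Over all 6654570 positions that the rule could have picked, the window exceeded its flanks at 39.3% and was below them at 59%, with means of 53.9 and 56.3%. Read on the gene's strand, the summit windows were 33.2% A and 29.7% T, and 18.9% G and 18.3% C.

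Downstream summits were less rich in A and T than upstream summits and richer than core summits. Windows with 65% A+T or more were 99 of 229 downstream (43.2%), 599 of 895 upstream (66.9%; log2 odds ratio −1.41, two-sided Fisher's exact test, adjusted p = 1.40e-10) and 16 of 164 at the core (9.76%; 2.78, adjusted p = 2.43e-13). The means were 67.7% (SD 8.76) upstream and 55.0% (SD 8.11) at the core. The bases open to each rule also differed, at 54% A+T downstream, 61.1% upstream and 55.9% at the core. By feature, downstream summit windows averaged 65.7% (SD 7.43) in introns, 60.6% (SD 8.51) in 5' UTRs and 54% (SD 6.88) in coding sequence, where the open bases averaged 62.1, 57.9 and 47%.

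**Figure D5:**
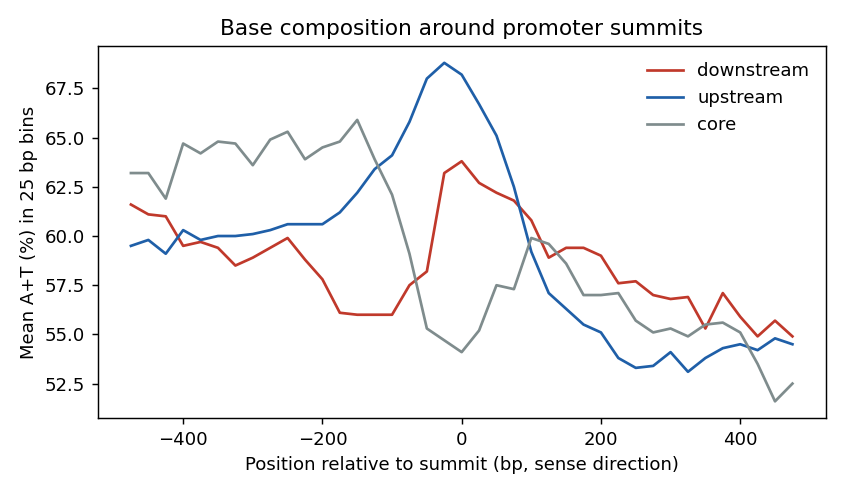
Mean A+T content in 25 bp bins relative to the summit, in the direction of transcription, for downstream, upstream and core peaks. Downstream peaks rise from 56% at 100 bp before the summit to 63.8% at it and decline to 56.8% at 300 bp after it. Core peaks have a local dip at the summit (54.1%) and are lower at 450 bp after it (51.6%).

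Single summits spread widely round that mean. The peak at Pgk, +315 bp, had the highest share at 90.1% A+T, against 60.9% in its flanks. COX7AL2 (+463 bp), named for a cytochrome c oxidase subunit, and Utx (+497 bp), the histone H3K27 demethylase gene, each had 81.2%. The lowest were Tet with 40.6%, omd with 41.6% and the RNA helicase gene Rm62 with 46.5%, a value that Sugb and CG11151 shared. Each of these 5 was below its own flanks.

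No single 6-mer passed when the summits were tested against their flanks. The test did not use the pairing of each summit with its own flanks. Of 2080 canonical 6-mers, 0 were called (0%) by two-sided Fisher's exact tests with Benjamini-Hochberg adjustment, and no other tool was run. At an unadjusted p under 0.05, 94 were more common and 98 less common at the summit. The leading one, CAAATA, was in 22.7% of summit windows and 10.5% of flank windows (exact test, adjusted p = 0.0654).

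Against upstream summits, 34 of 2080 6-mers (1.63%) were called, 25 of them (1.2%) more common downstream. The leading one was ACACAC, in 38 of 229 downstream windows (16.6%) and 35 of 895 upstream windows (3.91%; 4.24-fold, two-sided Fisher's exact test, adjusted p = 8.81e-07). CACACA, which overlaps it, was in 15.7 and 6.82% (exact test, adjusted p = 0.0155), and CGGTTA in 6.55 and 1.12% (adjusted p = 0.00717). Less common downstream were TAAAAA (20.5 and 35.5%, exact test, adjusted p = 0.00717), ATATAA (10.5 and 22.9%, adjusted p = 0.00717) and TTTAAA (11.8 and 24.1%, adjusted p = 0.0128). A window shows these letters on either strand. Equal windows at all such promoters, 197 bp downstream and 228 bp upstream of the TSS, held TAAAAA in 12 and 25.4%, ATATAA in 6.89 and 15.8% and TTTAAA in 5.71 and 15.4%, so the same order was present without regard to peaks. CGGTTA was in 2.3 and 2.19% of them. The counts moved with the settings. With windows reaching 25 bp to either side, or among peaks above the list's median signal, 1 6-mer was more common and 0 were less common downstream, and ACACAC was called in both (exact test, adjusted p = 0.0242 and 0.0308; 8.35e-13 to 0.0308 over all settings). With windows reaching 100 bp to either side the counts were 74 and 59, and without replicate 1 they were 28 and 18.

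The CA repeat was also common around the downstream summits. ACACAC was in 11.1% of their flank windows, and the difference from the summits did not pass (exact test, adjusted p = 0.557). It was in 8.68% of windows of the same length 197 bp downstream of all 14436 such promoters, in 6.4% of those 228 bp upstream, in 7.32% of core summits and in 7.35% of all reproducible summits. The overlapping CACACA differed less, at 15.7% of downstream summits, 13.4% of core summits and 13.3% of the flank windows. ACACAC was found at 22 summits in 5' UTRs (19.6%), 16 in introns (14.5%) and 0 in coding sequence. The longest repeats ran to 15 bases at Spred, which encodes an inhibitor of Ras signalling, 14 at Ace, the acetylcholinesterase gene, and 13 at CG17124. Among the strong peaks shown above, it ran to 10 bases at CG10365 and 8 at Stat92E.

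Longer and shorter known motifs, searched on both strands, were compared by share alone. GTAAACA was in 16 downstream windows (6.99%), against 2.18% of their flanks, 1.89% of all promoters at the same place and 5.82% of all reproducible summits. It was in 6.1% of core and 4.47% of upstream windows. The 16 included bchs, CG31729, Stat92E, CG9992 and Utx. The shorter forkhead-type motif TGTTTA was in 16.6% of downstream, 17.7% of upstream and 7.93% of core windows. It was in 12% of the flanks of downstream peaks and in 19.4% of all reproducible summits. GAGAG, bound by GAGA factor, was in 11.4% of downstream windows, 18.6% of their flanks and 11.1% of all promoters. TATCGATA, the DNA replication-related element, was in 1 downstream window (0.437%) and in 8.54% of core windows, and GGTCACAC, part of the M1BP site, was in 0 and 4.88%. TATCGATA was in 0.104% and GGTCACAC in 0.166% of all promoters at the same place.

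Many of the genes had several start sites. The nearest TSS was the most 5' one of its gene for 117 of 229 downstream peaks (51.1%), and 122 peaks lay upstream of a further TSS of the same gene, 30 of them within 500 bp and 71 within 2 kb. A downstream peak was found at 220 of 13945 protein-coding genes (1.58%). It was found at 47 of 10246 genes with a single TSS (0.459%), 125 of 3259 with 2 or 3 (3.84%) and 48 of 440 with 4 or more (10.9%). Genes with more TSSs offer more positions to the rule. Another promoter summit of the same gene was present for 68 downstream peaks, and in 47 cases it was an upstream one.

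CG18622, CG31751, CG34355, CG3529, Diap1, Pgk, Trpm, ced-6 and chk each carried 2 downstream peaks. In CG31751, CG34355 and CG3529 both summits lay within 500 bp and shared the same library region, so their relative signals are the same numbers. Trpm, which encodes a TRP cation channel, had 1.96 and 2.48 in replicates 1 and 3 at +138 bp of one start site, and 0.850 and 0.834 at +171 bp of another. Diap1, the inhibitor of apoptosis, had 1.16 and 0.777 at +132 bp and 0.573 and 0.739 at +82 bp. Pgk had 1.16 and 1.18 at +346 bp, beside the uneven pair of values at +315 bp given above. By chromosome the 229 peaks were 42 on 2L, 51 on 2R, 51 on 3L, 50 on 3R, 33 on X and 2 on 4. The summits of 5 of them (2 at chk and 1 each at Tsp42Ea, CG6424 and SCOT) were equally near TSSs of 2 genes.

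Among regulators, the downstream peaks were at 4 of 27 nuclear receptor and ecdysone response genes (14.8%), against 1.58% of all protein-coding genes. The list had a median of 2 TSSs per gene, against 1 over all genes. Upstream peaks were at 2 of the 27 (7.41%), against 5.7% of all protein-coding genes. Eip75B, an ecdysone-induced nuclear receptor, had relative signals of 2.34 in replicate 1 and 1.95 in replicate 3 at +58 bp. Hr78, an orphan receptor, had 2.24 and 1.88 at +64 bp. Eip63E, a cyclin-dependent kinase gene, had 0.730 and 1.07 at +302 bp, and Eip78C, a nuclear receptor, had 0.557 and 0.634 at +120 bp. Eip75B and Hr78 were above the median peak in both libraries and Eip78C below it in both.

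RNA-binding and splicing factors had 5 of 38 genes with a downstream peak (13.2%), with a median of 3 TSSs per gene. Upstream peaks were at 9 of the 38 (23.7%), also above their 5.7% of all protein-coding genes. Sxl, the switch gene of sex determination, had relative signals of 1.21 and 1.63 in replicates 1 and 3. Rbfox1 had 0.713 and 1.02, AGO2 0.326 and 1.03, shep 0.566 and 0.749, and Imp 0.557 and 0.599. Sxl alone of these 5 was above the median peak in both libraries. Without replicate 3 the share was 5.26%.

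Chromatin regulators of the polycomb and trithorax group had 3 of 28 (10.7%), with a median of 1 TSS per gene. They were ph-p, Utx with relative signals of 1.51 and 1.43, and the chromatin remodeller kis with 0.611 and 0.770. BTB and zinc finger factors had 3 of 32 (9.38%), which were Trl, the gene for GAGA factor (1.05 and 1.65), fru (0.982 and 0.902) and CrebB (0.533 and 0.677). Trl was also the 1 of 20 insulator and promoter architectural genes. Upstream peaks were at 7.14% of the polycomb and trithorax list, 21.9% of the BTB and zinc finger list and 20% of the insulator list.

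Of the signalling pathways listed, Hedgehog (0 of 15) and BMP and activin (0 of 26) had no gene with a downstream peak. The others had 1 or 2 such genes each, to be read against the 1.58% of all protein-coding genes. Upstream peaks were at 5.7% of all protein-coding genes, and most of these lists exceeded that too. They were at 12.5% of JAK-STAT and Toll genes, 10% of Wnt, 25.7% of EGFR, FGFR and Ras, 24% of Notch and 17.4% of insulin genes. In Hippo and planar polarity the upstream share was 4.35%. No share was adjusted for the number of TSSs per gene. JAK-STAT and Toll had 2 of 24 (8.33%), Stat92E and the feedback inhibitor Socs36E (0.714 and 0.674 at +478 bp). Wnt had 2 of 30 (6.67%), the co-receptor arr, seen in replicate 3 alone with 1.20, and Apc of the destruction complex (0.725 and 0.989). Hippo and planar polarity had 2 of 23 (8.7%), the upstream activator kibra (0.409 and 1.00) and the transcription factor sd (0.686 and 0.537). EGFR, FGFR and Ras had 2 of 35 (5.71%), the repressors cic (1.14 and 1.44) and aop (0.811 and 0.782). Notch had 1 of 25 (4%), the coactivator mam (0.874 and 1.05). Insulin signalling had 1 of 23 (4.35%), the receptor InR (0.501 and 1.03). Stat92E and cic were above the median peak in both libraries.

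Adhesion and axon guidance genes had shares of 5.71 and 5.41%, and upstream peaks were at 14.3 and 10.8% of them. Adhesion genes had 2 of 35, the glial septate junction protein Gli (1.54 and 1.05) and the integrin if (0.778 and 0.757). Axon guidance genes had 2 of 37, Sema1a (0.586 and 0.952) and Ephrin (0.626 and 0.664). Cytosolic ribosomal proteins had 1 of 92 (1.09%), RpS9 (0.436 and 0.829). The gene tim, which is timeless of the circadian clock, had 1.25 and 0.554 and was the 1 gene with a downstream peak among 31 listed under DNA damage, where it does not belong. No downstream peak was found at the 43 Hox, segmentation and homeobox genes, the 15 Hedgehog, 26 BMP and activin, 27 microtubule and dynein, 23 heat shock and 29 neuronal identity genes. At the 1.58% of all protein-coding genes, even the list of 43 would hold less than 1 gene, so these zeros are near the background. Upstream peaks were found at 2, 1, 1, 3, 4 and 2 genes of these lists in turn.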

How the data were processed

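The deposited lists are in narrowPeak layout. The reproducible list is the authors' selection by irreproducible discovery rate (IDR), which scores how well peak ranks repeat between replicates. A relaxed list of 30000 regions per library was also deposited. Each list gives the authors' signal per region, deposited with no stated scale, and a deposited summit offset. The signal was used only within a list. Neither aligner nor peak caller is given in the sources used here. Per the file headers, both dm6 relaxed lists were made against a single shared control, not analysed here. Only dm6 lists were used.

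Summits were assigned to Ensembl release 115 (BDGP 6.54) TSSs without transposable elements, on 6 chromosomes, with 1-based coordinates, and sequence came from the release 6 assembly. Library regions were matched at 1 bp of overlap. A+T and canonical 6-mers were counted in windows reaching 50 bp to either side of the summit. Shares were compared by two-sided Fisher's exact tests with 0.5 added to each cell for the odds ratio only, and adjusted by Benjamini-Hochberg at 0.05. Calculations were tested on simulated data. Alternatives changed the TSS set, bounds, overlap, windows, flanks and thresholds, and used the 5085 strongest regions of 1 library. Named genes were the 20 strongest peaks, the 3 nearest each bound, up to 3 strongest per gene list, the 5 with the largest library gap, the 3 highest and lowest in A+T and the leading 6-mers. Others (bgcn, ZnT41F, Sugb, CG11151, the genes with 2 peaks, the coding summits, the remaining list members, the tied summits and the repeat and motif examples) were named after their values were seen. The members and gene lists were chosen with earlier results of these data known, and 1 list is not reported here. The scripts ran in Python 3.11.15 (scipy 1.17.1, pandas 2.3.3, numpy 2.4.6, matplotlib 3.10.9).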

Additional observations from a re-analysis of the deposited data

How the results depend on the processing

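Of 83 alternative values over 18 results, 66 kept their direction and their side of the threshold or stayed close to the reported value. Among peaks above the list's median signal there were 82 downstream peaks, none (0%) in coding sequence and 57.3% in introns, the log2 odds ratio of library disagreement against upstream peaks was 0.322, and 1 6-mer was more common than upstream and 0 less common. With 51 bp windows 1 was more and 0 were less common than upstream, and with windows reaching 100 bp to either side 74 and 59, while 2 6-mers then rose above the flanks. With the strongest regions of 1 library alone there were 218 to 267 downstream peaks, 0 to 3 6-mers above the flanks, 23 to 28 more and 11 to 18 less common than upstream, 0.917 to 4.12% coding summits and 1.49 to 1.85% of protein-coding genes with a peak. Against core peaks the signal's log2 odds ratio ran from −0.191 without replicate 1 to 0.123 without replicate 3, which reversed its sign, and no value passed. The cause of these shifts was not tested. No pairing of samples between groups was possible because there is 1 group. The depth of the libraries is unknown, so no counting error can be given for a peak, and with 2 libraries the spread between embryos is poorly known.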
